A study of Mus musculus with 3 samples.

Results

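The genes described here are 8 members of the gasdermin and inflammasome pathway, taken by name from the deposited table, in which all 8 of them were found among 13891 genes. They were Gsdmc2, Gsdmc3, Gsdmc4, Gsdmd, Nlrp6, Pycard, Casp1 and Il18, and the rule that names them uses no measured value. They were followed in 7 classes of small intestinal epithelial cells that held 6109 of the 12653 cells. The study asked whether alginate oligosaccharides (AOS), short fragments of a seaweed polysaccharide, protect the gut from busulfan, an alkylating drug used in leukaemia. Male ICR mice, an outbred strain, were 3 weeks old at the start. The AOS 0 group received the vehicle, the B + A 0 group received a single injection of busulfan at 40 mg/kg and then the vehicle, and the B + A 10 group received the same injection and then AOS at 10 mg/kg by daily gavage over 2 weeks. Cells of 6 mice were combined into 1 library per group, so the spread between mice cannot be measured, no difference between groups can be tested, and intervals cover counting error only. The source field of the 2 busulfan libraries names other groups than their titles do, and the titles were followed. The libraries held 3195 to 5352 cells, and their median depth per cell was 7371, 6407 and 3505 UMIs in the order in which the groups were named. Between 17 and 34 cell barcodes were shared by any pair of libraries. Where 3 values stand in a row without names, the first is of AOS 0, the second of B + A 0 and the last of B + A 10.

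Inflammasomes are protein platforms that sense microbial products or damage inside a cell. A sensor such as NLRP6 joins the adaptor ASC, the product of Pycard, which recruits the protease caspase-1, the product of Casp1. Caspase-1 matures the cytokine interleukin-18 and cuts gasdermin D, whose freed end forms pores in the plasma membrane. In the gut epithelium, interleukin-18 is made by the epithelial cells themselves, NLRP6 has been tied to antimicrobial defence and mucus release, and the gasdermin C family has been linked to type 2 immunity.

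The classes were clusters named from marker genes outside the pathway, and the 8 genes and the wider pathway list were kept out of the clustering. Stem-like cells numbered 762, early-enterocyte-like cells 914, mid-enterocyte-like cells 1250, mature-enterocyte-like cells 997, ileal-enterocyte-like cells 981, goblet-like cells 770 and Paneth-like cells 435. The goblet class was a single cluster. Unnamed clusters of 693, 575 and 391 cells also scored highest on the goblet markers and lie outside it. Values of the goblet class therefore do not cover all cells with goblet markers. No marker of a class was at 0 in that class, over 8 to 12 markers a list. The early enterocyte markers, however, summed to 306.6 in the mid and 258.9 in the ileal class and to 243.0 in the early class itself, so they do not set that class apart by their level. The mid enterocyte markers summed to 39.9 in the mid, 34.4 in the mature and 30.3 in the ileal class. Their level thus sets the mid class apart only weakly from these. Although the 8 genes took no part in the clustering, Gsdmc2, Gsdmc4 and Pycard were among the 10 leading genes of the early-enterocyte-like cells, and Il18 among those of the mid-enterocyte-like cells. Levels below are UMIs per 10000 UMIs of a class, and brackets hold exact Poisson 95% intervals. In a 3′ assay a level can be compared between classes for the same gene, and levels of different genes were not compared. The 8 goblet markers summed to 4724 in the goblet class and the 9 Paneth markers to 5348 in the Paneth class. All other genes share the rest of the 10000 there, so a low level in these classes need not be low expression.

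Gsdmc2, Gsdmc3 and Gsdmc4 lie side by side on the minus strand of chromosome 15 in the mm10 build, at chr15:63824346-63845177, chr15:63857724-63878558 and chr15:63891264-63912297. Their coding sequences were 97.1% identical between Gsdmc2 and Gsdmc3 and 93.8% identical between Gsdmc4 and either of them. A 90-base coding stretch that lies within a single exon is shown for each, chosen as the one in which the 3 genes differ at the most positions. It lies outside the last 500 bases of the transcript, where 3′ reads fall. Capitals mark the 18 positions at which the 3 genes do not all have the same base.
Gsdmc2 (chr15:63826832-63826921, minus strand): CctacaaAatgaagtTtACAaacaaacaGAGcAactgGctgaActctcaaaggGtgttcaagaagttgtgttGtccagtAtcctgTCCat
Gsdmc3 (chr15:63860262-63860351, minus strand): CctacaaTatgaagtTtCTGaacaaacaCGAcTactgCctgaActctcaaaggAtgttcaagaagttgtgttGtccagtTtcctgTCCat
Gsdmc4 (chr15:63893779-63893868, minus strand): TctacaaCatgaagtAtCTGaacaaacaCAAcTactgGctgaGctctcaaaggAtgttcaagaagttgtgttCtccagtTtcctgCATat

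Within those last 500 bases, 14.9% of the 98-base windows of Gsdmc2 and 5.96% of those of Gsdmc3 were found unaltered in another gene of the family, against 0 of 403 windows of Gsdmc4. How the counting handled reads that fit several of these genes is not given in the sources used here. Values of the single genes are therefore uncertain, and their sum is given as well. Gsdmc2 had the largest share of such windows among the 3 genes, and Gsdmc3 had the fewest UMIs. Gsdmd lies on the plus strand further along the same chromosome, at chr15:75862327-75867408, and overlaps no other gene. Il18, at chr9:50554827-50581840 on the plus strand, overlaps Bco2 and Tex12 on the opposite strand, and Pycard, at chr7:127989708-127993867 on the minus strand, overlaps Gm45205 on the opposite strand. Whether the counting used the strand is not stated. Casp1, at chr9:5298517-5307265, and Nlrp6, at chr7:140920902-140929192, lie on the plus strand and overlap no other gene.

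Promoter sequences from RefSeq (GRCm38.p6) were matched for 5 of the 8 genes. The 250 bases before the start are shown for the sensor, the protease and the cytokine, whose levels over all libraries were highest in the same class. The RefSeq start of Il18 lies before that of the gene model given above. Both strands were searched for a motif of GATA factors with the letters AGATAA, a motif of CDX factors with the letters TTTATG, a motif of HNF4 with the letters CAAAGTCC and a motif of STAT factors with the letters TTCNNNNGAA, and capitals mark the only match in these windows. It was a STAT match in the Il18 window, beginning 46 bases before the start, and 5.85% of all 32851 promoter windows hold these letters.
Nlrp6 (chr7:140920652-140920901, plus strand): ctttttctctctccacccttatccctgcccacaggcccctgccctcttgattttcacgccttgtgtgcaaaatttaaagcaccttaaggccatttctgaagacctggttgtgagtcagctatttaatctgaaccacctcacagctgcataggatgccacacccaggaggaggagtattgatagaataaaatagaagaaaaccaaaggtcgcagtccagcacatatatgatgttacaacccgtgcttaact
Casp1 (chr9:5298267-5298516, plus strand): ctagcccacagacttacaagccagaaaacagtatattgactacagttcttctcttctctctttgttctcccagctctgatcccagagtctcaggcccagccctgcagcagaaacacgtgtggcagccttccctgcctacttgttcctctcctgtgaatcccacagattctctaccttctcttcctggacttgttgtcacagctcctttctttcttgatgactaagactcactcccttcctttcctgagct
Il18 (chr9:50554450-50554699, plus strand): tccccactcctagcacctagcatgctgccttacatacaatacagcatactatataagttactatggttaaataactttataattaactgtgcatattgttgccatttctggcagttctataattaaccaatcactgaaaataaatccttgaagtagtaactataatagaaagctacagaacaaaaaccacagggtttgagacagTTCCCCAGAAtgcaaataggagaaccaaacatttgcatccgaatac

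Among the 7 classes, the gasdermin C genes were highest in early- and ileal-enterocyte-like cells. These genes encode pore-forming proteins of the gasdermin family. In early-enterocyte-like cells the level of Gsdmc2 was 0.80 [0.698 to 0.914], 0.671 [0.548 to 0.814] and 0.504 [0.403 to 0.623]. In ileal-enterocyte-like cells it was 0.656, 0.393 and 0.454. Levels of Gsdmc2 in the mid class were between 0.0984 and 0.133, and the other 4 classes had at most 0.0310 in any library. The ranges of the early and ileal classes over the 3 libraries overlapped, whereas both lay above the mid class in every library.

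Gsdmc4 showed the same division, with 0.365, 0.326 and 0.334 in early-enterocyte-like cells and 0.355, 0.335 and 0.283 in ileal-enterocyte-like cells. Its mid class had 0.0623 to 0.111. Gsdmc3 was sparse, with 67 UMIs in the early and 61 in the ileal class. Its level was 0.146, 0.0978 and 0.0703 in early-enterocyte-like cells and 0.108, 0.0681 and 0.0791 in ileal-enterocyte-like cells. No UMI of Gsdmc3 was counted in the stem-like or goblet-like cells, where 3 counts over all libraries would be a level of 0.00759 and 0.00779. Which of the early and ileal classes was higher in Gsdmc3 and Gsdmc4 differed between libraries, and for Gsdmc4 also between settings of the clustering.

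The sum of the 3 genes was 1.31, 1.09 and 0.909 in early-enterocyte-like and 1.12, 0.797 and 0.817 in ileal-enterocyte-like cells. In AOS 0 it was 0.0131 in stem-like, 0.0315 in mature-enterocyte-like, 0.0224 in goblet-like and 0.0617 in Paneth-like cells. All 3 genes, like the 5 others, were higher in early-enterocyte-like than in stem-like cells in every library. Of the early-enterocyte-like cells 27.0% had a UMI of Gsdmc2, at a median depth of 6004 UMIs. In goblet-like cells, at 4567 UMIs, the share was 1.04%, and in T-cell-like cells, at 4361 UMIs, it was 2.2%. Whether shares of this size are expression or free RNA was not tested. After every cell was thinned to 1000 UMIs, which left out no cell, a gasdermin C UMI was seen in 8.97% of early-enterocyte-like cells [7.2 to 11, exact binomial], 7.54% of ileal-enterocyte-like cells and 1.76% of mid-enterocyte-like cells. It was seen in 0 of 435 Paneth-like cells, for which 3 counts would be a share of 0.690% and the exact binomial upper limit is 0.844%.

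**Figure D1:**
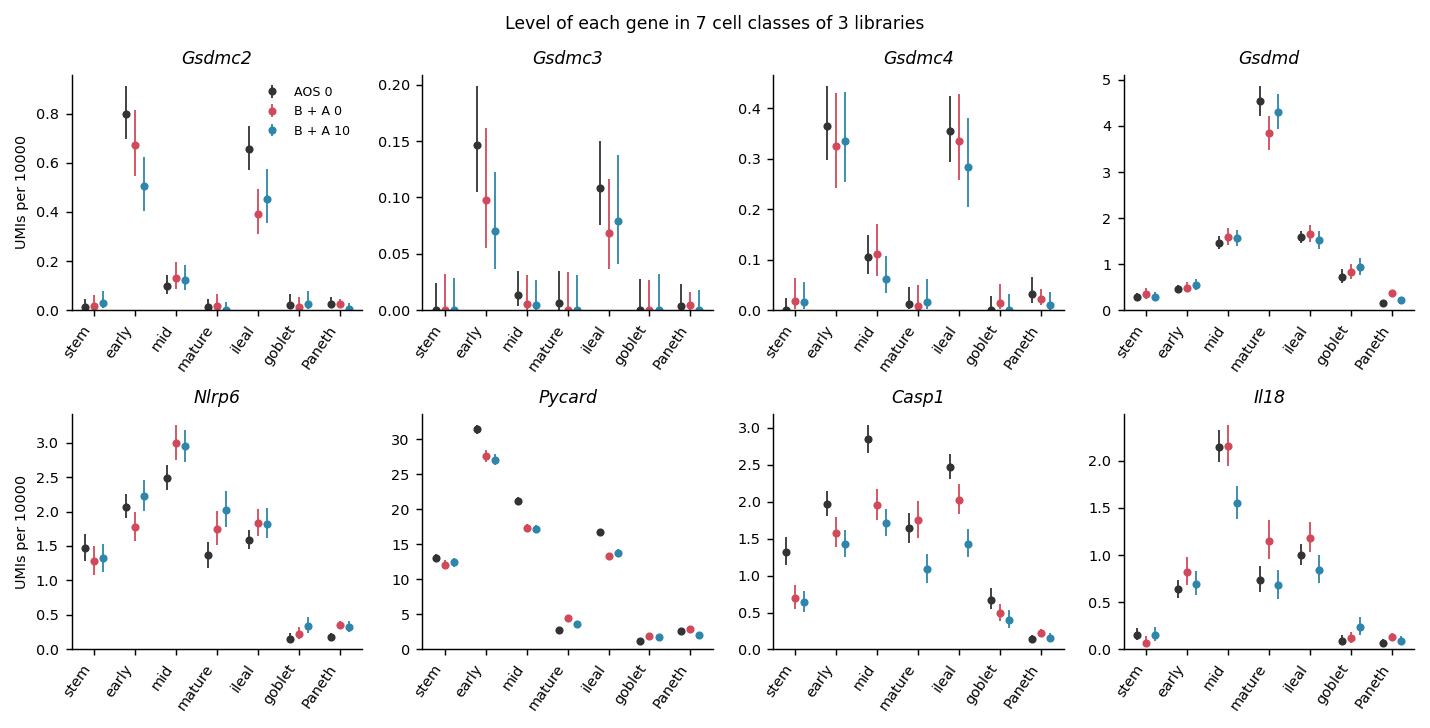
Level of each of the 8 genes (vertical axis, UMIs per 10000 UMIs, from 0) in the 7 classes of the 3 libraries; points are single libraries and bars exact Poisson 95% intervals, which cover counting error only. Gsdmc2, Gsdmc3 and Gsdmc4 stand out in the early and ileal classes, Gsdmd in the mature class at 3.84 to 4.53, Pycard in the early class at 27.1 to 31.4, and Il18 in the mid class at 1.55 to 2.16.

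Clusters led by genes of cell division lay between the stem and early classes. The cycling-like cluster led by Cdc20, Ube2c and Cenpa, which are genes of mitosis, had 0.406, 0.391 and 0.377 of Gsdmc2. An unnamed cluster led by Hist1h2ao, Top2a and Stmn1, genes of DNA replication and proliferation, had 0.123, 0.0675 and 0.0625. In each library the level of Gsdmc2 was lower than this in stem-like cells, at 0.0131, 0.0176 and 0.0310, and higher than in either cluster in the early-enterocyte-like cells.

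In early-enterocyte-like cells, markers of the distal gut went with the gasdermin C level. Early-enterocyte-like cells of each library were divided into terciles by the ileal markers Fabp6, Slc10a2, Slc51a, Slc51b, Mgat4c, Upp1, Slc5a8 and Cubn. Gsdmc2 in AOS 0 was 0.438 in the lowest, 0.575 in the middle and 1.41 [1.18 to 1.68] in the highest tercile. The corresponding values were 0.448, 0.487 and 1.06 [0.798 to 1.37] in B + A 0, and 0.502, 0.392 and 0.626 [0.438 to 0.867] in B + A 10. The interval of the highest tercile lay above that of the lowest in AOS 0 and B + A 0, and the intervals overlapped in B + A 10. Gsdmc4 went from 0.131 over 0.256 to 0.724 in AOS 0, from 0.102 over 0.390 to 0.472 in B + A 0 and from 0.174 over 0.375 to 0.435 in B + A 10.

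In mid-enterocyte-like cells, divided the same way, Gsdmc2 was 0.0595, 0.130 and 0.109 from the lowest to the highest ileal tercile of AOS 0, 0.139, 0.128 and 0.131 in B + A 0 and 0.0610, 0.135 and 0.173 in B + A 10. The values stood in the order of the terciles in B + A 10 alone, and its intervals overlapped between the terciles of each library there.

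Division of the early-enterocyte-like cells by duodenal markers separated the cells the other way. The highest duodenal tercile had the lowest Gsdmc2 in every library, at 0.582, 0.328 and 0.295, against 0.885, 0.846 and 0.722 in the lowest tercile. In AOS 0 the middle tercile was the highest, at 0.932, and the intervals of the lowest and highest terciles overlapped. In B + A 0 the middle tercile had 0.818, and the intervals of the lowest and highest terciles were apart. In the duodenal-enterocyte-like cluster, led by S100g, Reg1 and Slc40a1, Gsdmc2 was at 0, 0.0453 and 0.0184. Pycard and Nlrp6 differed less between ileal terciles, with 29.6, 32.5 and 32.1 for Pycard and 1.99, 2.13 and 2.09 for Nlrp6 from the lowest to the highest tercile of AOS 0. The intervals of Nlrp6 overlapped between all ileal terciles of a library.

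**Figure D2:**
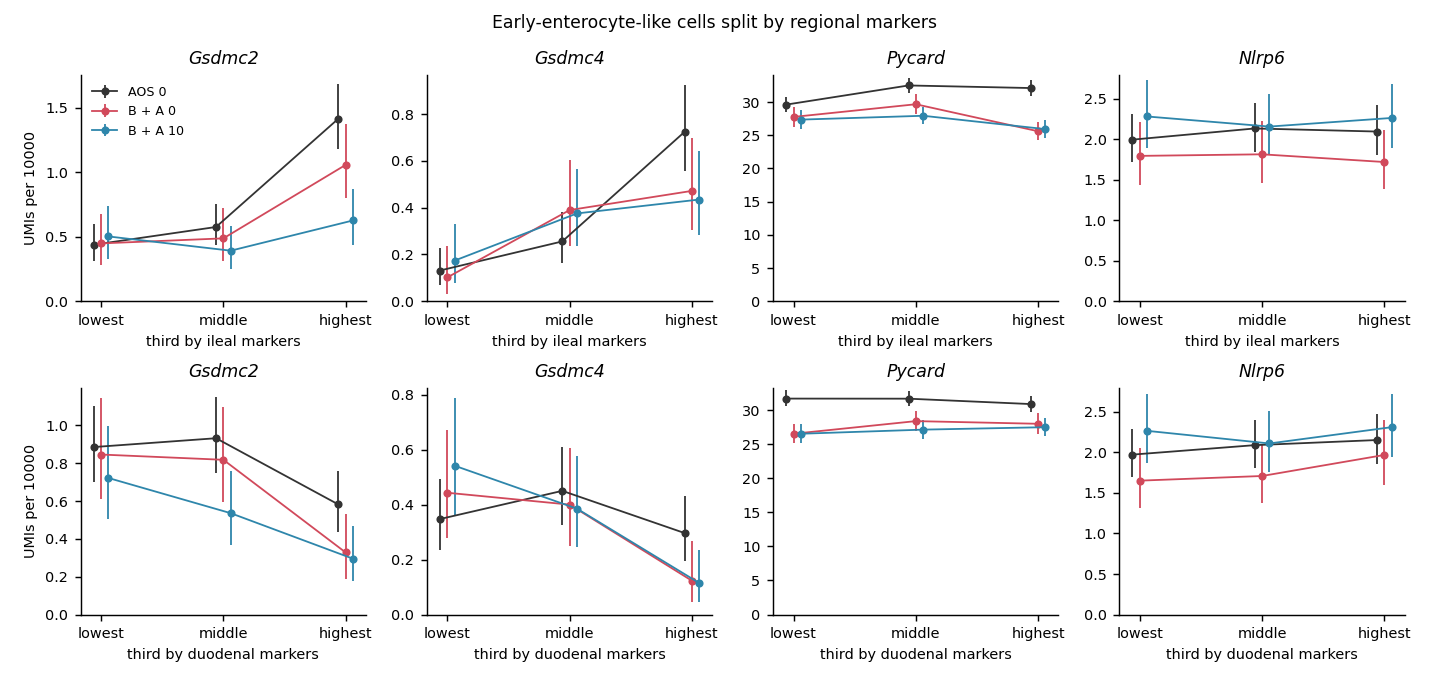
Level (vertical axis, UMIs per 10000, from 0) of 4 genes in early-enterocyte-like cells divided into terciles of ileal (upper row) or duodenal (lower row) marker level within each library; points are libraries and bars exact Poisson 95% intervals. Gsdmc2 and Gsdmc4 are highest in the highest ileal tercile of each library, with Gsdmc2 at 1.41, 1.06 and 0.626, while Nlrp6 lies between 1.99 and 2.13 in all ileal terciles of AOS 0.

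Within ileal-enterocyte-like cells, ordered from early to mature markers in 4 equal bins, Gsdmc2 was 0.920, 0.520, 0.336 and 0.204 over all libraries. Gsdmc4 was 0.546, 0.326, 0.232 and 0.134. Both genes were thus lower toward the mature end of the ileal order as well, and Gsdmd was higher there, at 0.895, 1.29, 1.90 and 2.70.

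Gsdmd, the pore former that caspase-1 cleaves, was highest in mature-enterocyte-like cells, where the gasdermin C genes were near 0. Its level there was 4.53 [4.21 to 4.88], 3.84 [3.48 to 4.22] and 4.30 [3.93 to 4.69]. The ileal class had 1.51 to 1.65, the mid class 1.47 to 1.59, the goblet class 0.725 to 0.934, the early class 0.457 to 0.545, the stem class 0.275 to 0.352 and the Paneth class 0.152 to 0.373. The ranges over libraries overlapped for the ileal and mid classes and for the stem and Paneth classes, and were apart between all other neighbours in this order.

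Pycard, which encodes the adaptor ASC, was highest in early-enterocyte-like cells, at 31.4 [30.8 to 32.1], 27.7 [26.8 to 28.5] and 27.1 [26.3 to 27.9]. It was found in all but 1 of the 914 cells of that class. The mid class followed at 17.2 to 21.2, the ileal class at 13.3 to 16.7 and the stem class at 12.1 to 13.1, each above the next in every library and with ranges apart. Mature-enterocyte-like cells had 2.72 to 4.55, Paneth-like cells 2.09 to 2.88 and goblet-like cells 1.23 to 1.87. Pycard was thus high already in stem-like cells and low in the mature cells in which Gsdmd was highest.

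The sensor Nlrp6 and the cytokine Il18 were highest in mid-enterocyte-like cells in every library. Nlrp6 had 2.48 [2.31 to 2.67], 3.00 [2.75 to 3.26] and 2.95 [2.72 to 3.19] in that class, and its range lay above every other class. In the stem class it was 1.28 to 1.47. Goblet-like cells, in which this sensor has been studied for mucus release, had 0.157, 0.226 and 0.341 of Nlrp6, and Paneth-like cells had 0.177, 0.348 and 0.324. The unnamed clusters with goblet markers are not part of these goblet values. T-cell-like cells had 8.91 of Pycard, 1.14 of Gsdmd, 1.03 of Casp1, 0.921 of Nlrp6 and 0.447 of Il18 over all libraries. The goblet and Paneth classes lay below these levels for all 5 genes, the stem class for Gsdmd, Casp1 and Il18, the early class for Gsdmd and the mature class for Pycard. Whether such lower levels are expression or free RNA was not tested. Whether T-cell-like cells express these genes themselves was not tested either, so a level below theirs does not mark background.

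Il18 had 2.15, 2.16 and 1.55 in mid-enterocyte-like cells, and at most 1.18 in any other class and library. Its level was 0.843 to 1.18 in the ileal, 0.678 to 1.15 in the mature and 0.636 to 0.821 in the early class, ranges that overlap between neighbours. It did not exceed 0.236 in goblet-like, stem-like or Paneth-like cells of any library. The duodenal-enterocyte-like cluster, outside the 7 classes, had 2.71, 2.02 and 1.35 of Il18, and an unnamed cluster led by Fabp1, Rbp2 and Adh6a, genes of fat and vitamin A handling, had 2.38, 2.17 and 1.81.

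Casp1, the protease, was spread more evenly over the enterocytes. Its mid class had 2.84, 1.96 and 1.71, its ileal class 2.47, 2.03 and 1.43, its early class 1.97, 1.58 and 1.43 and its mature class 1.64, 1.75 and 1.08, with overlapping ranges, and its highest class differed between settings. The stem class had 1.32, 0.696 and 0.636, the goblet class 0.673, 0.489 and 0.402 and the Paneth class 0.144, 0.227 and 0.152.

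Cells of the early, mid and mature classes and of the unnamed cluster led by Fabp1 were ordered by their early and mature enterocyte markers and cut into 8 equal bins, 4146 cells in all. Such bins are ranges of a score and not cell types, and 721 cells lay within 0.01 of a boundary. Gsdmc2 was 0.730 in the first and 0.0222 in the last bin over all libraries, and was highest in the first bin of each library. Pycard was lower in each later bin of every library, from 29.7 to 3.40. Gsdmd was higher in each later bin of every library, from 0.524 to 4.70. Il18 was low at both ends, at 0.784 and 0.611, and highest in bin 4 at 1.97 over all libraries, with its maximum in bins 3, 5 and 4 of the single libraries. Casp1 had 2.22 in bin 3 and 1.29 in the last bin over all libraries, and its maximum lay in bins 3, 5 and 4. Nlrp6 had 2.69 in bin 3 and 1.56 in the last bin over all libraries, and its maximum lay in bins 4, 5 and 6. The adaptor and the pore former thus had opposite orders along this axis, and both were present in the middle bins, where Il18 was highest. Median depth per cell was 6155 UMIs in the first and 3255 in the last bin.

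**Figure D3:**
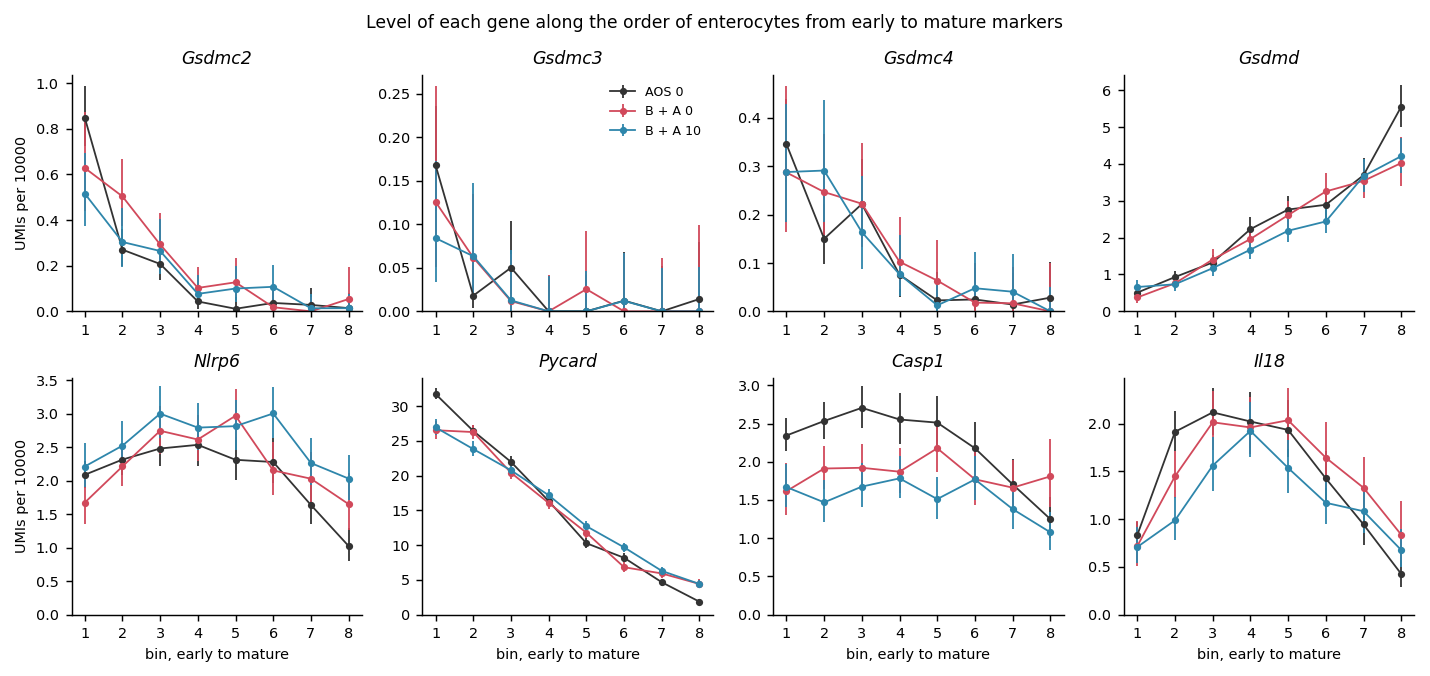
Level (vertical axis, UMIs per 10000, from 0) of the 8 genes over 8 equal bins of enterocytes ordered from early to mature markers (horizontal axis), with a line per library and exact Poisson 95% intervals. Pycard goes from 29.7 to 3.40 and Gsdmd from 0.524 to 4.70 over all libraries, while Il18 is highest in bins 3, 5 and 4 of the single libraries and Gsdmc2 in bin 1 of each.

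Single cells that held several of the genes were counted at equal depth. With 1000 UMIs kept per cell, a UMI of at least 3 of the 5 genes Nlrp6, Pycard, Casp1, Il18 and Gsdmd was seen in 12.9% of mid-enterocyte-like cells [11.1 to 14.9, exact binomial]. The share was 6.22% in the ileal, 5.69% in the early, 4.11% in the mature, 1.71% in the stem, 0.260% in the goblet and 0.230% in the Paneth class. In the mid class the 3 libraries had 13.4%, 15.1% and 11.4%, with overlapping intervals. The single genes, in the order named, were seen in 22.7%, 83.0%, 18.8%, 18.2% and 13.0% of mid-enterocyte-like cells. Of the mid-enterocyte-like cells with Il18, 21.1% had Casp1 and 22.4% had Nlrp6, against 18.3% and 22.8% of those without. Whether the genes were seen together more often than their separate shares give was not tested.

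Over the 21 points given by 7 classes in 3 libraries, which share libraries and depth, the profiles of the genes were compared by Pearson r of log2(level + 0.1), as a description. Among 8289 genes with at least 500 UMIs, a minimum that Gsdmc3 did not reach, Gsdmc2 was most like Gsdmc4 (r = 0.98), Duoxa2 (0.93) and Slc1a1 (0.90). Duoxa2 encodes the maturation factor of the epithelial oxidase DUOX2. Gsdmd was most like Grina, Pls1 and Cdhr2 (0.98 each), of which Pls1 and Cdhr2 encode parts of the brush border. Pycard was most like Pyurf (0.98), Cluh and Tex261 (0.97 each), Il18 most like Myo7a (0.98), Idh1 and Atp6v0e2 (0.96 each), Casp1 most like Sat1, Stard4 and Fkbp8 (0.97 each) and Nlrp6 most like Plcb3, Ndufc1 and Atpif1 (0.99 each). Among the 8 genes, r was 0.85 for Casp1 with Nlrp6, 0.85 for Casp1 with Il18, -0.02 for Gsdmd with Pycard and 0.03 for Gsdmd with Gsdmc2. Gsdmc3 had an r of 0.97 with Gsdmc2.

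The B + A 0 library was next set against AOS 0 to ask how these genes stood after busulfan. Of the 56 pairs of gene and class, 34 had at least 100 UMIs over both libraries, and 8 of these were past 1.5-fold, 6 higher and 2 lower in B + A 0. Among all genes with as many UMIs, the share past 1.5-fold was 5.04% in the stem class, 4.91% in the early, 4.71% in the mid, 11.7% in the mature, 5.69% in the ileal, 9.16% in the goblet and 22.2% in the Paneth class. The genes were past it in 1 of 3 pairs in the stem class, 0 of 7 in the early, 0 of 5 in the mid, 2 of 5 in the mature, 1 of 7 in the ileal, 1 of 3 in the goblet and 3 of 4 in the Paneth class. With 1 library per group these ratios compare libraries and not treatments. Since each class is measured per 10000 of its own UMIs, fewer transcripts of a gene and more of the others cannot be told apart.

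Casp1 was lower in the B + A 0 library in 5 of 7 classes. In stem-like cells it was 1.32 in AOS 0 and 0.696 in B + A 0, a log2 ratio of -0.93 [-1.32 to -0.54, exact binomial]. The ratio was -0.54 [-0.72 to -0.36] in the mid, -0.32 [-0.55 to -0.10] in the early and -0.29 [-0.46 to -0.11] in the ileal class, where all intervals lay below 0. In B + A 10 the level was lower again, so that the 3 libraries stood in falling order in 5 of 7 classes. Among the 16 clusters with at least 100 UMIs of Casp1, 14 had that order, but the clusters of the 7 classes are among them. By the same count Pycard had it in 9 of 19 clusters and Gsdmc2 in 3 of 4. The share over all genes is not given here for clusters. Of the 5 classes, the interval of B + A 10 against B + A 0 lay below 0 in the ileal class alone. The falling order was noticed in the values. Among the 1934 genes with at least 100 UMIs in every class, 6.10% had it in 5 or more classes. No other of the 8 genes had it in more than 2 classes. Median depth per cell stood in the same order. With each cell thinned to 1000 UMIs the ratio of B + A 0 to AOS 0 was -1.21 in the stem and -0.25 in the mid class, and the ratio of B + A 10 to B + A 0 was 0.18 in the stem, 0.33 in the early and -0.26 in the mid class. These thinned values rest on few UMIs, as in stem-like cells, where 34, 12 and 27 cells had a UMI of Casp1, and whether the order holds at equal depth could not be read from them.

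Gsdmc2 was lower in B + A 0 in the ileal class, at 0.656 and 0.393, a log2 ratio of -0.74 [-1.14 to -0.35], which turned to 0.14 with cells thinned to 1000 UMIs, where 17 and 12 cells had a UMI of the gene. Along the order from early to mature markers, 152 of 368 ileal-enterocyte-like cells of AOS 0 lay in the first of 4 bins, against 32 of 242 of B + A 0. Within the bins Gsdmc2 was 0.993 and 0.536, 0.426 and 0.620, 0.320 and 0.287, and 0.330 and 0.155 in AOS 0 and B + A 0, so the direction was not the same in all bins. The part of this order in the ratio was not tested. Its ratio in the early class was -0.25 [-0.61 to 0.09]. The sum of Gsdmc2, Gsdmc3 and Gsdmc4 had a ratio of -0.49 [-0.77 to -0.21] in the ileal class and -0.26 [-0.53 to 0.01] in the early class. In the early class the summed level of ileal markers was 29.8, 26.1 and 18.9, the same order as Gsdmc2, and its part in the result was not tested.

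Pycard was lower in B + A 0 by small ratios in the enterocytes in which it is high, with -0.18 [-0.24 to -0.13] in the early, -0.30 [-0.36 to -0.23] in the mid and -0.33 [-0.40 to -0.26] in the ileal class. It was higher where it is low, with 0.74 [0.55 to 0.93] in the mature and 0.60 [0.31 to 0.89] in the goblet class. The goblet ratio turned to -0.14 when each cell took its class from its own marker scores. Il18 was higher in the mature class, at 0.738 and 1.15, a ratio of 0.64 [0.27 to 1.02], and in the early class with 0.37 [0.03 to 0.71]. Nlrp6 was higher in the mature class with 0.36 [0.07 to 0.65], the mid class with 0.27 [0.11 to 0.43] and the ileal class with 0.21 [0.01 to 0.41]. It was lower in the early class with -0.23 [-0.44 to -0.01]. The early markers, of 11 genes, summed to 149.7 in goblet-like cells of AOS 0 and 134.5 in those of B + A 0, and the 12 mature markers to 12.1 and 24.3. In mature-enterocyte-like cells the mature markers summed to 606.9 in AOS 0 and 456.7 in B + A 0, and the last villus bin held 160 and 77 cells. Pycard, Il18 and Nlrp6 were all lower toward that end of the order, and its part in their ratios was not tested.

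In Paneth-like cells Gsdmd, Nlrp6 and Casp1 were past 1.5-fold higher in B + A 0. Gsdmd had 0.152, 0.373 and 0.221, and the ratio of B + A 0 to AOS 0 was 1.29 [0.77 to 1.85]. For Nlrp6 it was 0.97 [0.48 to 1.5] and for Casp1 0.66 [0.09 to 1.26]. The median over all 2509 genes tested in this class was 0.25, and 522 of them were past 1.5-fold higher against 34 lower. Markers of other cells moved in the same direction in this class. The 12 mature enterocyte markers summed to 8.22, 29.4 and 23.4, the ileal markers to 4.34, 11.8 and 9.08 and the 11 early markers to 22.9, 34.6 and 27.9. Their part in the Paneth ratios was not tested. The levels of all 3 genes in this class lay below those of T-cell-like cells, which cannot tell expression from free RNA.

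**Figure D4:**
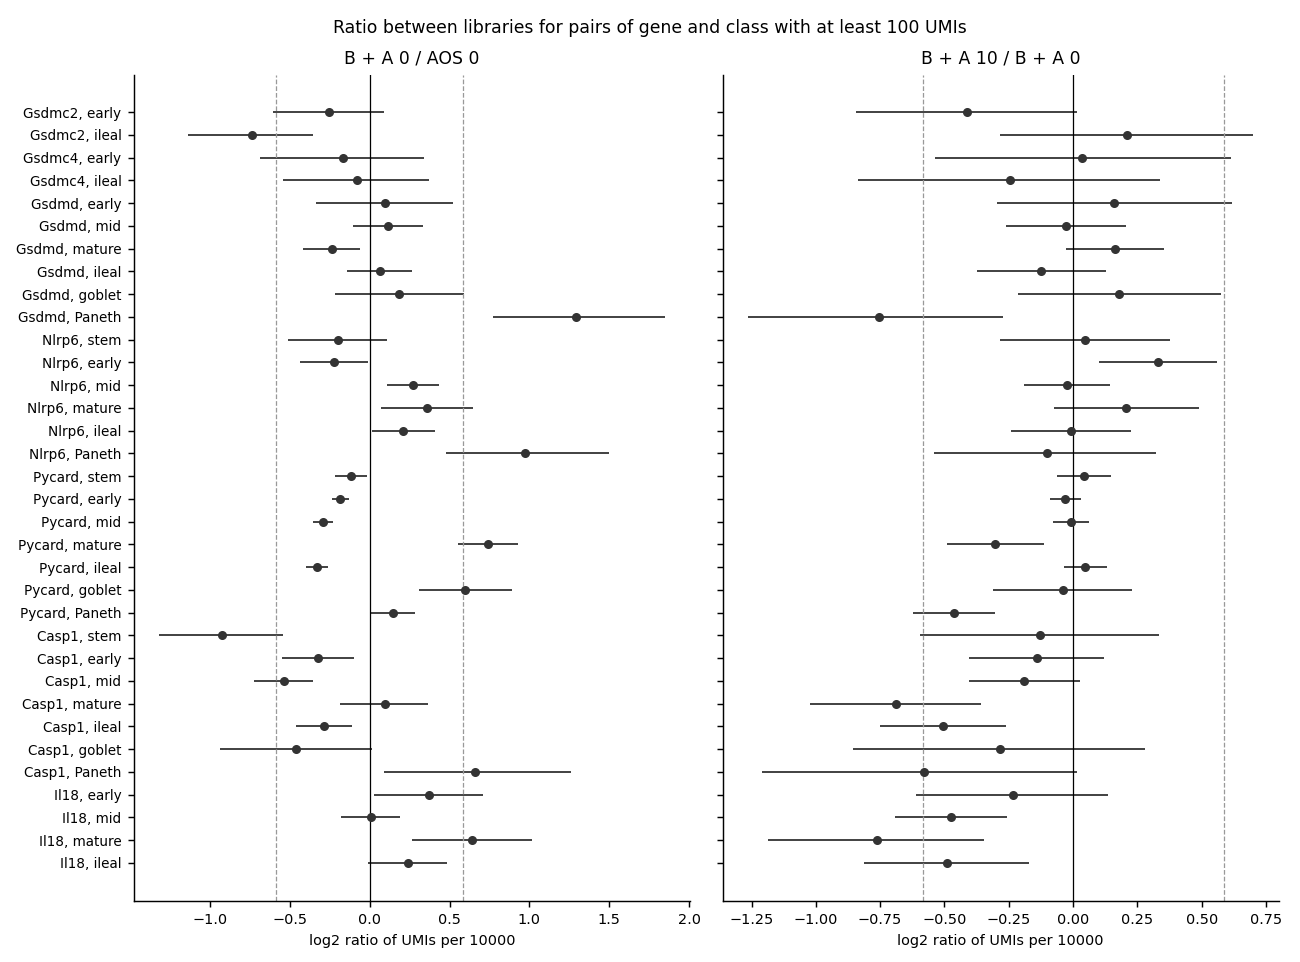
Log2 ratio of UMIs per 10000 (horizontal axes) for each pair of gene and class with at least 100 UMIs over both libraries, B + A 0 over AOS 0 on the left and B + A 10 over B + A 0 on the right; bars are exact binomial 95% intervals and dashed lines mark 1.5-fold. Gsdmd in Paneth-like cells lies furthest to the right on the left side, at 1.29, and Casp1 in stem-like cells furthest to the left, at -0.93.

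The B + A 10 library was then set against B + A 0 to ask what stood differently with AOS. Of 34 pairs, 3 were past 1.5-fold, all lower in B + A 10. The background over all genes was 3.16% in the stem, 3.27% in the early, 3.08% in the mid, 5.36% in the mature, 3.81% in the ileal, 5.22% in the goblet and 8.59% in the Paneth class. Of the pairs of these genes 2 of 5 in the mature class, 1 of 4 in the Paneth class and none of 25 in the other classes were past it. Il18 in mature-enterocyte-like cells was 1.15 in B + A 0 and 0.678 in B + A 10, a ratio of -0.76 [-1.18 to -0.35], beside 0.738 in AOS 0. Both this ratio and that of Casp1 in the same class stayed past 1.5-fold under 6 of 10 alternative settings. In the mid class, at -0.47 [-0.69 to -0.26], and in the ileal class, at -0.49 [-0.81 to -0.17], Il18 was also lower. Casp1 in mature-enterocyte-like cells was 1.75 and 1.08, a ratio of -0.69 [-1.02 to -0.36], and the ratio was below 0 in all 7 classes. Besides the mature class, its interval lay below 0 in the ileal class alone, at -0.50 [-0.75 to -0.26]. Gsdmd in Paneth-like cells had a ratio of -0.75 [-1.26 to -0.27]. Nlrp6 was higher in the early class, with 0.33 [0.10 to 0.56]. Gsdmc2 had -0.41 [-0.84 to 0.01] in the early and 0.21 [-0.28 to 0.70] in the ileal class. This comparison shares the B + A 0 library with the one before it, so the same library lies in both ratios of a gene, with opposite sign.

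Other genes of the pathway were taken from a list of 53 names, of which 37 were rows of the table and 26 reached 0.2 UMIs per 10000 in a class. Their levels and highest classes are over all libraries unless a library is named, and can differ in a single library. Among gasdermins only Dfna5, the older name of Gsdme, did so, with 0.455 in the ileal class. Among sensors, Naip5, a receptor of bacterial flagellin, was highest in mature-enterocyte-like cells at 1.06, Naip1 and Naip6 were highest in ileal-enterocyte-like cells at 0.870 and 0.323, and Naip2 in mid-enterocyte-like cells at 0.335. Their partner Nlrc4 reached 0.218 in the ileal class and the DNA sensor Aim2 0.233 in the stem class. Of the caspases of cell death, Casp8 was highest in the mature class at 1.86 and Casp6 in the mid class at 3.02. Casp4, the murine caspase-11 that senses lipopolysaccharide, had 0.326 in the ileal class.

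Il18bp, which encodes the binding protein that blocks interleukin-18, was highest over all libraries in goblet-like cells, at 0.470. In AOS 0, however, the mature class had 0.662 of it, above the goblet range over libraries of 0.438 to 0.523. Il33 was highest in mature-enterocyte-like cells at 0.274 and Sigirr, a dampening receptor, in early-enterocyte-like cells at 0.226. Of the partners and regulators, Zbp1 was highest in the mature class at 3.09, Ripk3 in the early class at 0.487, Mlkl in the mid class at 0.335, Txnip in the goblet class at 1.67, and Hmgb1, Dhx15, Dhx9 and Ninj1 in the stem class at 17.9, 1.13, 0.777 and 0.304. The receivers of type 2 signals, Il4ra, Il13ra1 and Stat6, were highest in the mature class, at 0.300, 2.28 and 0.424. Their relation to the gasdermin C genes was not tested. Of 98 pairs of these genes and classes, 4 were past 1.5-fold higher and 3 lower in B + A 0 than in AOS 0, within the 4.71% to 22.2% found by class over all genes. The higher ones included Casp8, Dhx15 and Zbp1 in Paneth-like cells, and the lower were Dfna5 in the ileal class and Il18bp and Il13ra1 in the mature class. Il18bp in mature-enterocyte-like cells was 0.662 in AOS 0 and 0.281 in B + A 0, a log2 ratio of -1.24 [-1.87 to -0.65]. The mature markers summed to 606.9 and 456.7 in that class of these libraries. Their part in the ratios of Il18bp and Il13ra1 was not tested, nor was a relation of Il18bp to Il18. Of 80 pairs, 1 was higher and 2 were lower in B + A 10 than in B + A 0, within the 3.08% to 8.59% over all genes, namely Dhx15 in the ileal class and Casp6 in the Paneth and Ripk3 in the mid class.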

How the data were processed

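Single small intestinal cells of 3 groups were profiled with the 10x Genomics 3′ v2 kit, in 1 library per group. The authors aligned reads and counted UMIs with Cell Ranger 2.2.0 on mm10, forced to 5000 cells, removed cells with fewer than 200 genes and genes in fewer than 3 cells, and deposited Seurat-normalised values, the natural log of 1 plus UMIs per 10000. Whole UMIs were recovered within 0.01 for 100% of 24333763 values above 0. The B + A 10 library holds 5352 cells. Totals were 35258551 UMIs in AOS 0, 26044381 in B + A 0, and 23003083 in the B + A 10 library.

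Cells were clustered in Seurat 5.3.0 (R 4.3.3) after joining the libraries, at resolution 0.8, into 20 clusters. A cluster took the marker list of highest mean score if at least 3 of the list's markers were in the table, at least 2 of them were among its 10 leading genes, no other list had more there, and no more than 50% of its cells were in the highest 5% of doublet scores, and otherwise stayed unnamed. This naming rule was set after the clusters were seen. The doublet caller of scanpy 1.11.5 marked 15 cells, too few to have worked, so doublets were kept and left out as an alternative (597 cells). UMIs were summed per class and library. Ratios have exact binomial intervals, and pairs needed 100 UMIs over both libraries. The intervals were checked on simulated Poisson counts only, the model they assume, so that check does not cover uneven counts between cells. No group comparison was tested. The text names the 8 genes, genes of the wider list with at least 0.2 UMIs per 10000 in a class, and the 3 genes most like each of the 8 among those with at least 500 UMIs. Some genes of the wider list enter its counts and are not reported here by name. Members, lists and comparisons were chosen with earlier results of these data known. Gene models are from GENCODE M21, and sequences were aligned with Biopython 1.88.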

Additional observations from a re-analysis of the deposited data

Results flagged for a closer look

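For 4 genes the ratio of B + A 0 to AOS 0 had counting intervals on opposite sides of 0 in different classes. Each direction comes from 1 library per group, and the difference between classes was not tested. The log2 ratio of Pycard was -0.33 in ileal-enterocyte-like and 0.74 in mature-enterocyte-like cells, and that of Casp1 was -0.93 in stem-like and 0.66 in Paneth-like cells. Nlrp6 had -0.23 in early-enterocyte-like and 0.97 in Paneth-like cells, and Gsdmd had -0.24 in mature-enterocyte-like and 1.29 in Paneth-like cells.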

How the results depend on the processing

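All 8 genes were higher in early-enterocyte-like than in stem-like cells in every library under each of the 10 alternatives tried on the classes. The class with the highest level was the same for at least 7 genes under 9 of them. With the class of each cell taken from its own marker scores it was the same for 5 genes, and 84 of 168 levels lay within their counting intervals. With cells thinned to 1000 UMIs 101 of 168 did, where fewer UMIs are left. Of the pairs past 1.5-fold between B + A 0 and AOS 0, 8 in the report, there were 5 without joining the libraries, 5 with the marker scores of each cell, 1 of 12 after thinning, 13 with at least 1 UMI in each library and 1 at 2-fold. Between B + A 10 and B + A 0 there were 3, against 1 with the marker scores, 1 of 15 after thinning, 7 with at least 20 UMIs, 12 with at least 1 UMI in each library and 0 at 2-fold. Casp1 in stem-like, Gsdmd in Paneth-like and Nlrp6 in Paneth-like cells were past 1.5-fold between B + A 0 and AOS 0 under every alternative that gave a value, of which thinning says nothing for Gsdmd, seen in 1 of 101 and 3 of 173 cells. In mature-enterocyte-like cells, Pycard and Il18 between B + A 0 and AOS 0 stayed past it under 6 and 7 of 10 alternatives, and Il18 and Casp1 between B + A 10 and B + A 0 under 6 of 10 each. The ratio of Pycard in goblet-like cells turned to -0.14 with the marker scores of each cell and to -0.067 with clusters named from the highest score alone, an alternative added after seeing the data. After thinning, Gsdmc2 in ileal-enterocyte-like cells (B + A 0 against AOS 0) turned to 0.14 and Gsdmd in Paneth-like cells (B + A 10 against B + A 0) to 0.43, with the gene seen in 17 and 12 cells and in 3 and 5 cells, too few to read a direction. The cause was not tested. Of 679 ratios recomputed under alternatives, 612 stayed within the counting interval. Some alternatives changed few cells. A minimum of 500 detected genes kept 6100 of the 6109 cells, and leaving out the highest doublet scores kept 6007. Agreement under these says little, and they are included in the counts of alternatives above. No library could be left out, and no paired analysis was possible because each group has 1 library.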
